A study of Mus musculus with 6 samples.

Results

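Mural cells, the pericytes and vascular smooth muscle cells that wrap brain vessels, were followed through 10 genes of the deposited expression table. Pericytes were read from 6 genes (Pdgfrb, Rgs5, Abcc9, Vtn, Anpep and Higd1b) and smooth muscle from 4 (Acta2, Tagln, Myh11 and Cnn1). The rows were taken by gene symbol, and all 10 were found among the 23057 genes of the table. RNA had been sequenced from brains of C57BL/6 mice, 3 of them given a cranial X-ray dose of 10 Gy (here IR 1 to IR 3) and 3 mock-irradiated (mock 1 to mock 3), and each brain was taken 30 days later. The X-rays came from front to back through a collimated field 10.08 mm across, and mice of both groups were perfused with saline before dissection, per the labels' protocols. The labels name no tumor, drug, transgene or deletion for either group, and the age and sex of the animals are, in the sources used here, not given. The labelled tissue is whole brain.

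Pericytes sit within the basement membrane of capillaries and help to form the blood-brain barrier, and smooth muscle cells ring arteries and arterioles and set their width. Endothelial cells draw pericytes to the vessel by secreting PDGF-B, which binds PDGFRB on the pericyte. The contractile genes of smooth muscle are switched on by serum response factor (SRF) with myocardin-family partners at a DNA element called the CArG box.

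Levels are in FPKM, read fragments divided by transcript length and library size, so they can be compared between genes per unit of length. Their sum was between 472450 and 625782 per library, and the depth beyond the 30 to 40 M reads of the labels is unknown. The libraries were not alike in region: 12 cerebellar genes summed to 960 to 1356 FPKM in the mock and 33.2 to 78.6 FPKM in the irradiated brains, and 7 telencephalic genes to 8.25 FPKM in mock 2 against 42.5 to 181.3 FPKM in the other libraries. Olfactory bulb genes divided the libraries within both groups: 4 of them summed to 128.05, 9.83 and 148.1 FPKM in the mock brains, against 154.1, 6.14 and 6.55 FPKM in the irradiated ones, so IR 1 stood apart from IR 2 and IR 3 here too. For 12 choroid plexus genes the sums were 1792, 952 and 2198 FPKM in the mock brains, against 863, 808 and 1051 FPKM in the irradiated ones, and mock 2 lay within the irradiated range. Regional makeup and irradiation cannot be told apart for any difference between the groups. In each library, 4 neuronal genes summed to at least 1415 FPKM, 5 astrocytic ones to at least 399 FPKM, and 5 microglial ones to at least 39.9 FPKM. The 4 oligodendrocyte genes summed to 4607, 4509 and 5565 FPKM in the mock brains, against 3835, 2794 and 2144 FPKM in the irradiated ones. These sums did not overlap, though the values of Mog alone did. Of the 4 genes 0 were called (limma, median log2 change -0.75). At an unadjusted p under 0.05, 4 were lower, beside 25.6% of all tested genes in either direction. With quantile normalization, with library weights and without IR 1, 3 were called lower. Of 12 skeletal muscle genes 6 passed the filter on low values and 0 were called (limma; before adjustment, 1 was higher and 1 lower at a p under 0.05), and the list summed to 5.9 to 13.9 FPKM in the mock and 11.5 to 20.6 FPKM in the irradiated brains. Ckm stayed at or below 0.17 FPKM, while Acta1, skeletal muscle actin, was at 4.42, 1.88 and 6.03 FPKM in the mock brains, against 6.71, 7.90 and 13.9 FPKM in the irradiated ones (limma adjusted p = 0.104). Their part in the results on actin and smooth muscle genes was not tested. Of 4 blood genes in the table only Hba-a1, an alpha-globin, passed the filter, with 10.4 to 18.7 FPKM in mock and 18.9, 0.92 and 4.57 FPKM in IR 1, IR 2 and IR 3.

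The libraries also differed by transcript length, and IR 1 had the widest span. Among tested genes with a longest transcript under 1000 nucleotides its values were above those of IR 2 and IR 3 by a median of 0.38 on the log2(FPKM + 0.5) scale, and among those of 6000 nucleotides or more they were lower, with a median difference of -0.50. In that longest class IR 1 was the lowest of the 6 libraries for 63.0% of genes, against 25% over all tested genes. IR 2 had the opposite slope, from -0.43 to 0.34. Between the same classes mock 1 went from -0.25 to 0.26 and mock 3 from 0.31 to -0.11. Each library was set against the others of its group, so the slopes within a group depend on one another. The change of each tested member is given with and without IR 1. Leaving out IR 1 does not remove the slopes of the mock libraries.

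None of the mural cell genes was called higher or lower after irradiation. Of the 10, 9 had a mean of at least 0.5 FPKM and were tested with limma, and 0 of these 9 passed an adjusted p of 0.05, against 7.72% of the 14585 genes tested. At an unadjusted p under 0.05 there was 1, Rgs5, against 25.6% of all tested genes. The groups overlapped for each of the 10 genes, while 31.5% of tested genes had groups that did not overlap. The median log2 change was -0.04 over the 6 pericyte genes and -0.20 over the 3 tested smooth muscle genes, beside -0.02 over all tested genes. Without IR 1, with IR 1 and mock 2 both left out, and with a correction for transcript length, again 0 members were called in each direction. In bulk tissue, fewer cells of a type and less RNA per cell cannot be told apart, and nothing in the labels says which part of the vascular tree a library holds.

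**Figure D1:**
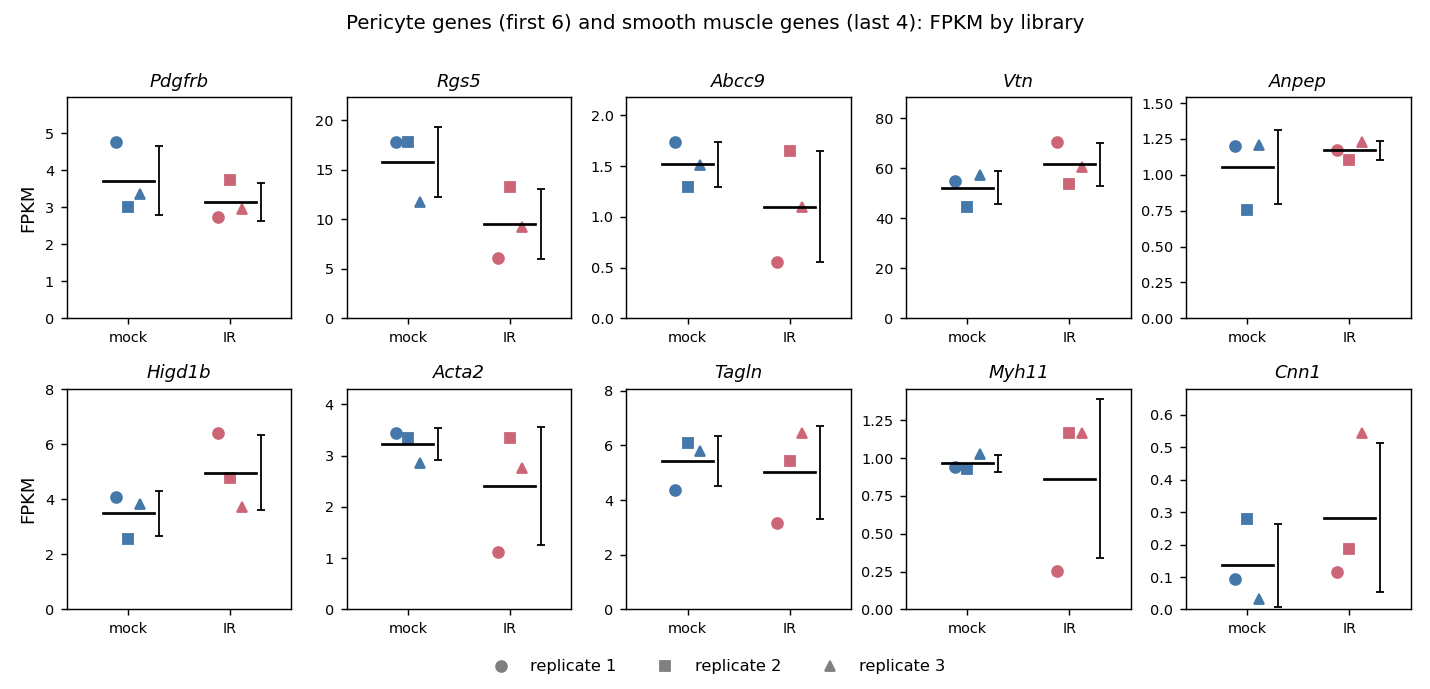
FPKM of the 10 mural cell genes (vertical axes, each from 0) in the 3 mock and 3 irradiated (IR) libraries. Symbols give the replicate number, lines the group mean and bars 1 SD. IR 1 (red circle) is the lowest point for Pdgfrb, Rgs5, Abcc9, Acta2, Tagln and Myh11.

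Rgs5, a regulator of G-protein signalling used as a pericyte marker, gave the widest shift of the tested members. It lies on the plus strand of mouse chromosome 1 (GRCm38.p6, 169655501 to 169695813). The 250 bases before its start are shown from RefSeq because Rgs5 is the abundant member with the largest change. Capitals mark its only match to the letters TATATA, which are found on either strand of 5.67% of all 32851 RefSeq windows of 300 bases.
Rgs5 upstream, chr1:169655251-169655500, plus strand: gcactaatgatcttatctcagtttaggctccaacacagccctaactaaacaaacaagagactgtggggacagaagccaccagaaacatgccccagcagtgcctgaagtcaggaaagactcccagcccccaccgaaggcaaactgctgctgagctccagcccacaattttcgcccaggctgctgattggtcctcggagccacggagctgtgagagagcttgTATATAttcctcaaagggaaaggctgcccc

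Rgs5 was at 17.8, 17.8 and 11.7 FPKM in mock 1, mock 2 and mock 3, and at 6.12, 13.2 and 9.19 FPKM in IR 1, IR 2 and IR 3. The irradiated libraries were lower as a group, but IR 2 lay above mock 3. The log2 change was -0.74 (SE 0.28, 95% interval -1.39 to -0.10), with a limma adjusted p of 0.146. Without IR 1 the log2 change was -0.47, and over all alternatives the adjusted p was 0.065 to 0.44. IR 1 was lower than the other irradiated libraries by more than its transcript length class: its deviation of -0.80 compares with a class median of -0.23, and 5.65% of the 2884 genes in that class were lower still.

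Pdgfrb, the PDGF-B receptor that pericytes need for recruitment (chromosome 18, 61045127 to 61085067), was at 4.77, 3.01 and 3.37 FPKM in the mock brains, against 2.74, 3.74 and 2.95 FPKM in the irradiated ones. The libraries of the groups were intermixed, with mock 1 the highest and IR 1 the lowest. Its log2 change was -0.20 (SE 0.21, 95% interval -0.67 to 0.28; limma adjusted p = 0.579), and -0.12 without IR 1. It was -0.026 without mock 1 and -0.32 without mock 2. In IR 1 Pdgfrb deviated from the other irradiated libraries by -0.24, beside a median of -0.23 for genes of its length.

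Abcc9, the sulfonylurea receptor subunit of the ATP-sensitive potassium channel of mural cells (chromosome 6, 142587862 to 142702766), was at 1.74, 1.3 and 1.52 FPKM in the mock brains, against 0.55, 1.65 and 1.10 FPKM in the irradiated ones. IR 2 fell within the mock range and the other irradiated libraries below it. The log2 change was -0.39 (95% interval -0.99 to 0.22; limma adjusted p = 0.391), and -0.12 without IR 1. Kcnj8, which encodes the pore of the same channel, was also lowest in IR 1, by a smaller margin: it was at 4.0, 3.46 and 3.79 FPKM in the mock brains, against 3.00, 4.32 and 3.30 FPKM in the irradiated ones.

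The other pericyte members had positive log2 changes, none of them called. Vtn, which encodes vitronectin, an adhesion protein of the extracellular matrix (chromosome 11, 78499120 to 78502325), was the most abundant member, with 54.7, 44.6 and 57.4 FPKM in the mock brains, against 70.6, 53.7 and 60.4 FPKM in the irradiated ones. IR 1 and IR 3 were above the mock range and IR 2 was inside it. The log2 change was 0.23 (95% interval -0.17 to 0.63; limma adjusted p = 0.430), and 0.13 without IR 1. Higd1b, a small protein of the hypoxia-inducible domain family (chromosome 11, 102835761 to 102844141), was at 4.09, 2.56 and 3.82 FPKM in the mock brains, against 6.42, 4.77 and 3.71 FPKM in the irradiated ones. It had the largest positive change among the members, 0.45 (95% interval -0.10 to 0.99; limma adjusted p = 0.279), and 0.26 without IR 1, the library in which it was highest. Its transcript of 735 nucleotides was the shortest of the 10, and in IR 1 it deviated by 0.56 beside a median of 0.38 for its length class. Anpep, the aminopeptidase CD13 of pericytes (chromosome 7, 79821803 to 79848210), was at 1.2, 0.76 and 1.21 FPKM in the mock brains, against 1.18, 1.10 and 1.23 FPKM in the irradiated ones, with mock 2 alone low. Its log2 change of 0.12 (95% interval -0.32 to 0.55; limma adjusted p = 0.727) became -0.03 without mock 2 and was 0.11 without IR 1.

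Each of the 3 tested smooth muscle genes had its lowest value in IR 1. Acta2 encodes smooth muscle alpha-actin, the most used marker of arteriolar smooth muscle, and lies on the minus strand of chromosome 19 (34240336 to 34255585). It was at 3.45, 3.35 and 2.87 FPKM in the mock brains, against 1.12, 3.34 and 2.77 FPKM in the irradiated ones. IR 1 held 0.41 times the lowest of the other 5 libraries, IR 2 was inside the mock range and IR 3 was just below it. The log2 change was -0.44 (SE 0.31, 95% interval -1.14 to 0.25; limma adjusted p = 0.393), and -0.07 without IR 1.

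The CArG elements of Acta2 are shown because SRF acts on this gene through them. RefSeq windows around the start were on hand for 6 of the 10 members. An exact CArG box was in the window of 0 of the 6 members and of 1.63% of all windows. With up to 1 base of the A/T core changed, Acta2 held 2 matches and the other members in the table (Rgs5, Abcc9, Vtn, Anpep and Cnn1) none, while 9.98% of all windows held at least 1. Both matches of Acta2 lie in the capitals below, on the minus strand, upstream of the start used for its window. That start lies inside the gene span given above, and so do both sites. The letters CATTCC, the MCAT element, were found on either strand for Acta2, Abcc9 and Vtn and in 14.7% of all windows, without overlapping the sites shown.
Acta2 site 1, chr19:34255438-34255467: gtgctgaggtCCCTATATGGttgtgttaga
Acta2 site 2, chr19:34255388-34255417: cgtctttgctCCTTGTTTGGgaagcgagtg

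Myh11, the myosin heavy chain of smooth muscle (chromosome 16, 14194527 to 14292188), was at 0.94, 0.93 and 1.03 FPKM in the mock brains, against 0.26, 1.16 and 1.17 FPKM in the irradiated ones. IR 2 and IR 3 were above each mock library and IR 1 was at 0.28 times the lowest of the others. Its log2 change was -0.20 (95% interval -0.90 to 0.50; limma adjusted p = 0.716) with IR 1 and 0.18 without it (adjusted p = 0.559).

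Tagln encodes transgelin, an actin-binding protein of smooth muscle (chromosome 9, 45929628 to 45936058). It was at 4.38, 6.10 and 5.78 FPKM in the mock brains, against 3.15, 5.42 and 6.46 FPKM in the irradiated ones. IR 1 was again the lowest and IR 3 the highest library. The log2 change was -0.14 (95% interval -0.73 to 0.45; limma adjusted p = 0.756), and 0.13 without IR 1. Tagln overlaps Pcsk7, a proprotein convertase gene on the opposite strand: 40.9% of the 1521 windows of 75 bases in its transcript occur in reverse complement in transcripts of another gene at this locus. Whether the authors counted by strand is not given in the sources used here, so reads from Tagln and Pcsk7 may be mixed. Pcsk7 was at 10.5, 8.70 and 10.9 FPKM in the mock brains, against 6.44, 8.69 and 8.79 FPKM in the irradiated ones, with IR 1 the lowest there too. For the other members, exact matches to transcripts of other genes were found only for Abcc9, in 12 of 7425 windows on the same strand and 90 on the opposite one. Acta2 shared none with the other actins.

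Cnn1, which encodes calponin 1 of contractile smooth muscle (chromosome 9, 22099221 to 22109221), was below the filter. It was at 0.09, 0.28 and 0.03 FPKM in the mock brains, against 0.12, 0.19 and 0.55 FPKM in the irradiated ones. The groups overlapped, and at these levels a change in Cnn1 could not be read. Without a filter its log2 change was 0.28 (95% interval -0.40 to 0.96; limma adjusted p = 0.629).

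By level per unit of length, the members ranked alike in both groups at the top and the bottom. Vtn averaged 52.2 ± 6.77 FPKM in the mock brains and 61.6 ± 8.51 FPKM in the irradiated ones (± SD over 3 libraries a group). Rgs5 followed with 15.8 ± 3.53 and 9.51 ± 3.56 FPKM, and Tagln with 5.42 ± 0.92 and 5.01 ± 1.70 FPKM. Pdgfrb, Higd1b and Acta2 had means of 3.72 ± 0.93, 3.49 ± 0.82 and 3.22 ± 0.31 FPKM in mock, with ranges that overlapped. In irradiated libraries Higd1b, at 4.97 ± 1.37 FPKM, lay beside Tagln. Abcc9, Anpep and Myh11 were at 1.52 ± 0.22, 1.05 ± 0.26 and 0.97 ± 0.06 FPKM in the mock brains, against 1.10 ± 0.55, 1.17 ± 0.07 and 0.86 ± 0.53 FPKM in the irradiated ones. Cnn1 was the lowest in both groups, at 0.14 ± 0.13 and 0.28 ± 0.23 FPKM.

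Set against each other with all libraries kept, the pericyte and smooth muscle genes did not move apart by more than the spread between libraries. The mean log2(FPKM + 0.5) of the 6 pericyte genes exceeded that of the 4 smooth muscle genes by 1.74, 1.18 and 1.52 in mock 1, mock 2 and mock 3, and by 2.00, 1.46 and 1.09 in IR 1, IR 2 and IR 3. The irradiated libraries spanned the mock range on both sides, and IR 1 had the widest gap. The group means were 1.48 ± 0.28 and 1.52 ± 0.46 (SD, n = 3 each), a difference of 0.04, or -0.20 without IR 1. With mock 2 and IR 1 both left out it was -0.36, and IR 2 and IR 3 lay below mock 1 and mock 3. The smooth muscle mean includes Cnn1, which was below the filter. At a mean of at least 1 FPKM, which leaves out Cnn1 and Myh11, the difference was 0.21. For the smooth muscle genes alone the library means were 1.01, 1.21 and 1.03 in the mock brains, against 0.36, 1.17 and 1.33 in the irradiated ones, so IR 1 alone was low. For the pericyte genes they were 2.75, 2.38 and 2.55 in the mock brains, against 2.36, 2.63 and 2.42 in the irradiated ones, and the groups were intermixed.

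**Figure D2:**
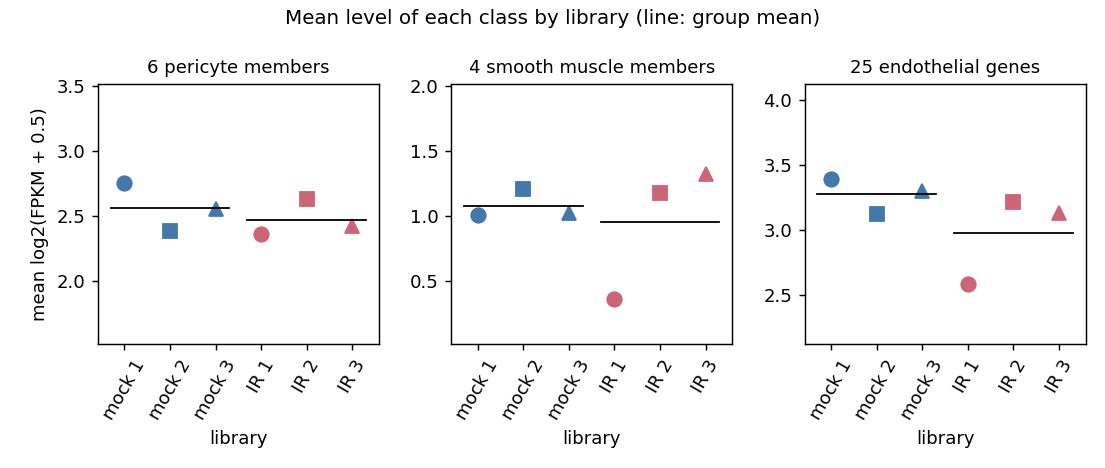
Mean log2(FPKM + 0.5) over the 6 pericyte genes, the 4 smooth muscle genes and 25 endothelial genes (vertical axes, all spanning the same range) in each library. IR 1 has the lowest smooth muscle value, 0.36, and the lowest endothelial value, 2.58, and the pericyte values lie between 2.36 and 2.75.

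Endothelial genes were low in the same library. Over 25 endothelial genes the mean log2(FPKM + 0.5) was 3.39, 3.12 and 3.30 in the mock brains, against 2.58, 3.21 and 3.13 in the irradiated ones. IR 1 was the lowest library for 15 of the 25, beside 25% of all tested genes. Among tested genes with a longest transcript of 4000 to 6000 nucleotides it was lowest for 39.7%, and at 6000 or more for 63.0%. The part of transcript length in the low endothelial values of IR 1 was not tested. Of the 25 genes, 1 fell and 0 rose (limma), beside 4.24% of all tested genes that fell, with a median log2 change of -0.34 (-0.10 without IR 1). The gene that fell was Ocln, the tight junction protein occludin, which changed by -0.79 on the log2 scale (SE 0.20, limma adjusted p = 0.048), and it was not called without any 1 of the 6 libraries (adjusted p up to 0.17 over all alternatives). The 6 pericyte genes lay below the endothelial mean by 0.64 to 0.75 in mock, by 0.58 in IR 2 and 0.70 in IR 3, and by 0.22 in IR 1.

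Within IR 1, Vtn, Higd1b, Anpep and Pdgfrb lay near the median of their length class, while Rgs5, Abcc9 and the 3 tested smooth muscle genes lay below it. Vtn, at 1744 nucleotides, deviated from IR 2 and IR 3 by 0.31 beside a class median of 0.24, and Anpep, at 3797 nucleotides, by 0.01 beside -0.06. Abcc9, at 7499 nucleotides, deviated by -0.81 beside -0.50, with 21.2% of its 1881 class members lower. Acta2, at 2035 nucleotides, deviated by -1.13 although the median of its class was 0.09, and 0.85% of the 3058 genes in that class were lower. Tagln, at 1595 nucleotides, deviated by -0.82 beside 0.24, with 2.61% of its 2796 class members lower. Myh11, at 6549 nucleotides, deviated by -1.14 beside -0.50, with 8.24% of 1881 lower. These are deviations of 1 library and have no replicate.

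**Figure D3:**
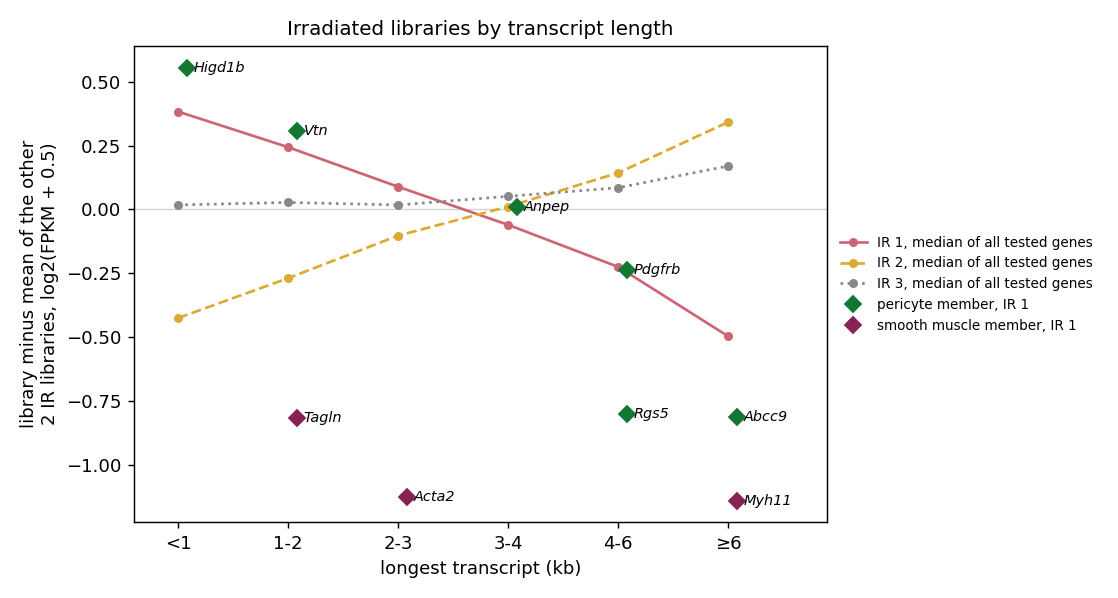
Difference between each irradiated library and the mean of the other irradiated libraries on the log2(FPKM + 0.5) scale (vertical axis) by length of the longest transcript (horizontal axis, kb). Lines give the median of all tested genes in a class and diamonds the members in IR 1. Acta2, Tagln and Myh11 lie below the IR 1 line, at -1.13, -0.82 and -1.14, as do Rgs5 at -0.80 and Abcc9 at -0.81.

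**Figure D4:**
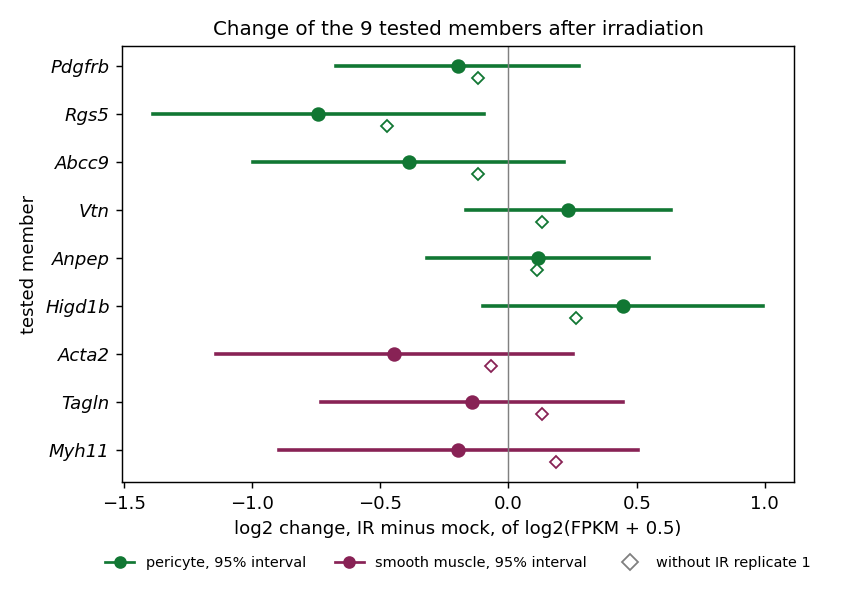
Log2 change of the 9 tested members, irradiated minus mock, with 95% intervals from limma (horizontal axis). Open diamonds give the change without IR 1. All intervals but that of Rgs5 include 0, and Tagln and Myh11 change sign without IR 1.

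A few other pericyte genes fell. Of 18 further pericyte genes tested, 0 rose and 2 fell (limma), beside 4.24% of all tested genes that fell, and the median log2 change was -0.17. Without IR 1, without both mock 2 and IR 1, with library weights and with the length correction 3 fell, and without a filter 1 did. Mcam, the adhesion molecule CD146 shared by pericytes and endothelium, was at 15.9, 11.5 and 13.3 FPKM in the mock brains, against 5.44, 4.96 and 4.01 FPKM in the irradiated ones. The groups were far apart, and the log2 change was -1.41 (SE 0.18, limma adjusted p = 0.0036; up to 0.040 over the alternatives). Ebf1, a transcription factor of pericytes and of B cells, was at 4.71, 5.25 and 4.27 FPKM in the mock brains, against 1.13, 1.74 and 0.60 FPKM in the irradiated ones (log2 change -1.72, SE 0.26, limma adjusted p = 0.0070). Its call was lost only without a filter on low values (adjusted p = 0.079). Art3 was not called (log2 change -0.58, limma adjusted p = 0.122), nor was Heyl, a Notch target (-0.59, adjusted p = 0.260). Art3 was called without IR 1 (adjusted p = 0.047), with library weights and with the length correction (0.042 each). Under the other alternatives Art3 was not called (limma adjusted p up to 0.35). Heyl was called with mock 2 and IR 1 both left out (log2 change -1.02, limma adjusted p = 0.047). With single libraries left out its change ran from -0.28 without IR 3 to -0.91 without IR 1. The cerebellar genes that fell in the same libraries are given above, and their part in these changes was not tested.

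Other smooth muscle genes were mixed. Of 17 tested, 1 rose and 1 fell (limma), beside 3.48% and 4.24% of all tested genes, with a median log2 change of -0.24. Casq2, the calcium-storage protein calsequestrin 2, fell from 7.85, 10.4 and 5.94 FPKM in the mock brains to 1.21, 1.05 and 1.05 FPKM in the irradiated ones (log2 change -2.39, SE 0.21, limma adjusted p = 0.000695). It is also a gene of cerebellar Purkinje cells. Pcp2, a Purkinje cell marker, was at 478 to 535 FPKM in the mock brains and 1.78 to 22.2 FPKM in the irradiated ones. Which cells the RNA of Casq2 came from, and the part of Purkinje cells in its change, was not tested. Itga8, an integrin subunit of contractile cells, rose from 0.37, 0.28 and 0.31 FPKM to 0.80, 0.86 and 1.20 FPKM (log2 change 0.82, SE 0.19, limma adjusted p = 0.035). That call was lost under 8 of 16 alternatives, among them leaving out any 1 library other than IR 1 (adjusted p up to 0.14). The mean of Itga8 was 0.32 FPKM in the mock brains, under the filter of 0.5 FPKM, and 0.95 FPKM in the irradiated ones. It therefore passed the filter only through the irradiated group, and at a mean of at least 1 FPKM it was not tested. Sncg and Cald1, which encodes the actin-binding caldesmon, did not pass (limma adjusted p = 0.051 and 0.104). Both were lower in each irradiated library than in any mock library, while 31.5% of tested genes had groups that did not overlap. Sncg was at 118, 148 and 176 FPKM in the mock brains, far above Acta2 at 3.45, 3.35 and 2.87 FPKM. Which cells its RNA came from was not tested. Sncg was called under 7 of 17 alternatives (smallest adjusted p = 0.014, without IR 1, and largest 0.19).

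Of the PDGF ligands, only Pdgfd passed the test. Of the 6 PDGF ligands and receptors tested, 0 rose and 1 fell (limma), beside 3.48% and 4.24% of all tested genes. Pdgfd, a ligand of PDGFRB, was at 6.59, 6.58 and 5.52 FPKM in the mock brains, against 1.73, 2.60 and 1.49 FPKM in the irradiated ones, with no overlap. Its log2 change was -1.48 (SE 0.21, limma adjusted p = 0.0044), lost only without a filter (adjusted p = 0.053). Pdgfb, the ligand that endothelial cells use to hold pericytes and that neurons also make, was at 8.94, 5.58 and 8.10 FPKM in the mock brains, against 11.6, 11.95 and 14.4 FPKM in the irradiated ones. Each irradiated library was above each mock library, and the log2 change of 0.73 (SE 0.20) did not pass (limma adjusted p = 0.064). It was called with median centring, quantile normalization, library weights and the length correction (smallest adjusted p = 0.042). Without mock 2, its lowest library, the log2 change was 0.54 (limma adjusted p = 0.165). Over all alternatives the limma adjusted p of Pdgfb reached 0.22. Pdgfa changed by 0.41 on the log2 scale without passing (limma adjusted p = 0.287) and Pdgfra, the receptor of oligodendrocyte precursors, by -0.66 (limma adjusted p = 0.272).

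Among 18 signals of mural cell recruitment 1 rose and 1 fell (limma), beside 3.48% and 4.24% of all tested genes, and the median log2 change was -0.12. The gene that fell was Pdgfd. Mfge8, a secreted glycoprotein that marks dying cells for engulfment and is also made by mural cells and astrocytes, rose from 64.6, 33.8 and 55.7 FPKM to 113.4, 103.6 and 120.01 FPKM (log2 change 1.17, SE 0.24, limma adjusted p = 0.025). The call was lost without a filter and without mock 3 or IR 3 (adjusted p up to 0.12). Tek, the angiopoietin receptor of endothelium, was at 2.89, 2.51 and 2.59 FPKM in the mock brains, against 0.69, 2.13 and 1.37 FPKM in the irradiated ones, and did not pass (log2 change -0.81, limma adjusted p = 0.113). It was called without IR 2 (adjusted p = 0.045) and under no other alternative (adjusted p up to 0.28).

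SRF and its partners did not pass the test. Of the 10 tested regulators and actin targets 0 were called (limma; 3 higher at an unadjusted p under 0.05, beside 25.6% of all tested genes in either direction), and the median log2 change was 0.37. Srf was at 9.83, 6.88 and 9.05 FPKM in the mock brains, against 12.1, 14.3 and 14.3 FPKM in the irradiated ones, with no overlap (log2 change 0.64, SE 0.18, limma adjusted p = 0.065). Mkl1, which encodes the coactivator MRTF-A, was at 11.3, 6.10 and 11.8 FPKM in the mock brains, against 16.1, 17.5 and 26.7 FPKM in the irradiated ones (log2 change 1.03, SE 0.28, limma adjusted p = 0.064). Both were called with median centring, quantile normalization and library weights, Mkl1 also with mock 2 and IR 1 left out. Without mock 2, the lowest library for both, the log2 changes were 0.50 for Srf and 0.74 for Mkl1 (limma adjusted p = 0.176 and 0.156). The median log2 change of the list was 0.21 in that setting. Over all alternatives the limma adjusted p reached 0.21 for each of these 2 genes. Mkl2, the related coactivator MRTF-B, was at 10.3, 4.45 and 9.02 FPKM in the mock brains, against 10.03, 17.8 and 21.5 FPKM in the irradiated ones, and the groups overlapped. It differed by 1.02 on the log2 scale (limma adjusted p = 0.114) and was called without IR 1 (adjusted p = 0.039), without both mock 2 and IR 1 (0.016) and with library weights. Without mock 2 alone its log2 change was 0.68 (limma adjusted p = 0.298). These genes are expressed in many brain cells. Myocd, the coactivator restricted to smooth and cardiac muscle, was not tested and never exceeded 0.083 FPKM.

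**Figure D5:**
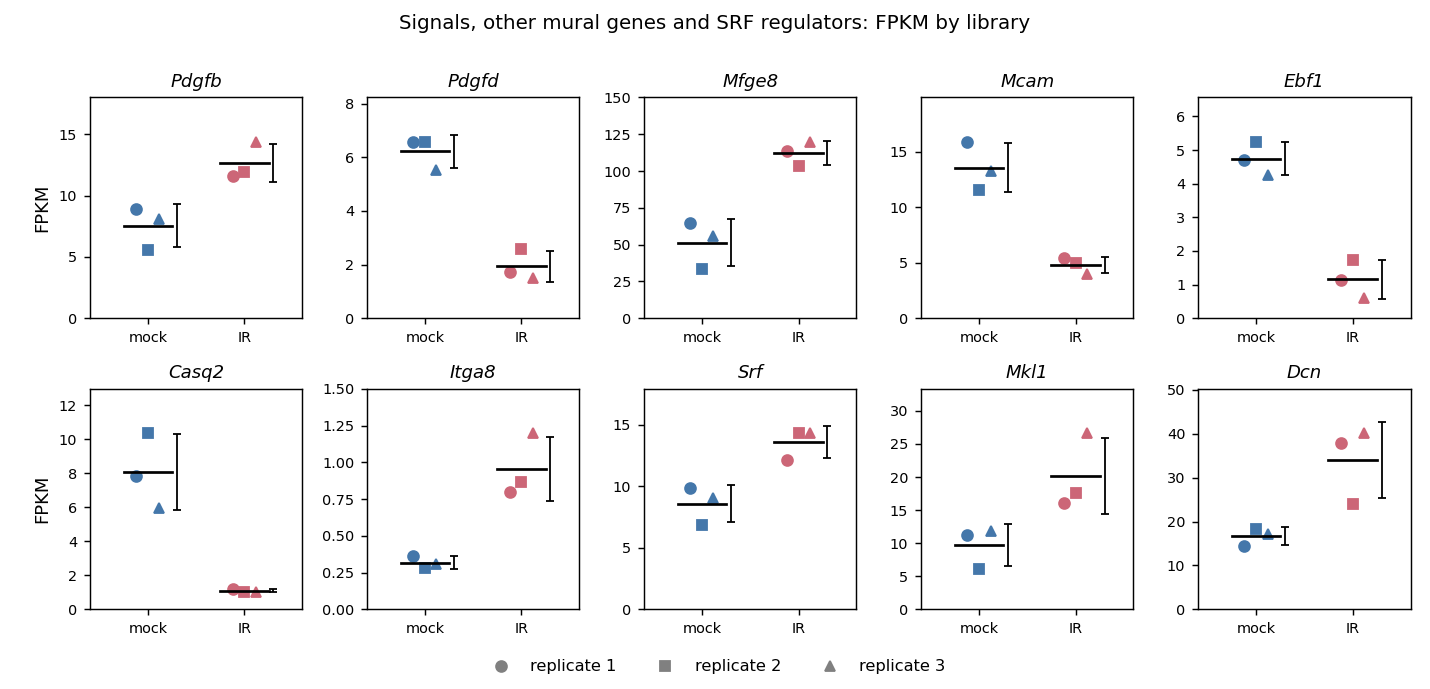
FPKM (vertical axes, each from 0) of signals, other mural genes, SRF regulators and the fibroblast gene Dcn in the 3 mock and 3 irradiated (IR) libraries, with the group mean (line) and 1 SD (bar). Mcam, Ebf1, Casq2 and Pdgfd are lower, and Mfge8, Itga8 and Dcn higher, in each irradiated library, and Pdgfb, Srf and Mkl1 do not pass the adjustment.

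Few genes of the vessel matrix and its fibroblasts passed the same test. Of 13 basement membrane genes 0 were called (limma; 1 was lower at an unadjusted p under 0.05, beside 25.6% of all tested genes in either direction). Their median change was 0.03 on the log2 scale. The gene with the smallest p was Sparc, a collagen-binding matrix protein also made by astrocytes, at -0.76 (limma adjusted p = 0.162). The limma adjusted p of Sparc was 0.047 without IR 1 and up to 0.44 over all alternatives. Col4a1 and Col4a2, the collagen IV chains, had log2 changes of 0.54 and 0.64 (limma adjusted p = 0.318 and 0.215). Of 14 perivascular fibroblast genes 1 rose and 0 fell (limma), beside 3.48% of all tested genes that rose, with a median of 0.10. Dcn, the proteoglycan decorin, rose from 14.4, 18.4 and 17.1 FPKM to 37.8, 24.1 and 40.2 FPKM (log2 change 0.98, SE 0.22, limma adjusted p = 0.032), and was not called without any 1 library other than IR 2 (adjusted p up to 0.13).

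The genes whose values over the 6 libraries came closest to the mean profile of each class were found by root mean square difference of centred log2(FPKM + 0.5), among 6964 tested genes with an SD of at least 0.3. For the smooth muscle profile they included Naa25, Mta3, Slk and Klf9, at 0.07 to 0.09. Each of these had its lowest value in IR 1, such as 25.3 FPKM for Klf9 against 46.2 to 59.1 FPKM in the others. The smooth muscle profile is itself lowest in IR 1, so this follows from how the genes were chosen. For the pericyte profile the closest genes were Tmem170b, Hic1, Sh3pxd2b, Rgmb and Nf1, at 0.14 to 0.16. This is a description over 6 libraries.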

How the data were processed

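Libraries were strand-specific and depleted of ribosomal RNA, started from 2 μg of total RNA and were read from one end over 75 nucleotides, per the labels' protocols. The deposited FPKM values are the authors'. The submitters' processing notes list TopHat, Cufflinks, Cuffdiff and the mm10 build, with no versions. Annotation, strand setting and scaling total were not given in the sources used here. After 1 leftover header line was removed, 14585 genes averaging 0.5 FPKM or more entered limma 3.58.1 (R 4.3.3). It was run on log2(FPKM + 0.5), fitting group alone, with a mean-variance trend. Its two-sided p-values were adjusted by Benjamini-Hochberg over all 14585. Fold changes on this scale understate those of low genes. An exact permutation test of 3 against 3 cannot give a p under 0.1. The labels do not say that animals were handled independently beyond 3 mice per group.

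The 10 members and all lists were chosen with earlier results of these data known. The members were named whatever their result, and from each list up to 4 genes with the smallest p. Kcnj8, Pcsk7, Pcp2, Ckm, Hba-a1 and Myocd were named after their values were seen. Transcript lengths are those of the longest GENCODE transcript, which matched 96.3% of tested genes. Coordinates and start-site windows are from RefSeq on GRCm38.p6, the assembly that mm10 represents. The script was tested on simulated data. Alternatives are in the closing section, and the length correction (lowess, span 0.3) was added after the data were seen. Of the genes closest to the smooth muscle profile, 1 is not reported here.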

Additional observations from a re-analysis of the deposited data

How the results depend on the processing

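Across 17 alternatives no member was called in either direction. Signs turned for 3 uncalled members: Anpep was at -0.031 without mock 2 (up to 0.19 without other single libraries) and at -0.034 with mock 2 and IR 1 left out together, Tagln at 0.071 with library weights and 0.21 with both left out, and Myh11 at 0.0079 and 0.16. With single libraries left out, Tagln ranged from -0.34 (without IR 3) to 0.13 (without IR 1) and Myh11 from -0.39 (without IR 3) to 0.18 (without IR 1). Myh11 was not tested at a mean of at least 1 FPKM. The gap between pericyte and smooth muscle genes ranged from -0.20 to 0.25 over single libraries left out. These shifts were within the SD between replicates of 0.38. With mock 2 and IR 1 both left out the gap changed from 0.04 to -0.36, a shift slightly larger than that SD. Over all genes, 508 rose and 618 fell. Without a filter 111 rose and 224 fell, with library weights 863 and 976, and with the length correction 853 rose. Leaving out single libraries gave 147 to 673 higher and 254 to 695 lower. Median centring called 687 higher and 571 lower. With the replicate number as a block 394 fell and 401 rose. Deviations of same-numbered libraries correlated at -0.33, 0.19 and 0.20, and not every library correlated best with its own number. These correlations cannot show whether the numbers pair the animals. Each deviation is taken from a group mean of 3 libraries, so the correlations depend on one another. The cause of the differences between alternatives was not tested. With 3 libraries a group and unknown depth, the 95% intervals of the tested members reached from -1.39 (Rgs5) to 0.99 (Higd1b) on the log2 scale.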

Other observations

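Ratios between genes of mural cells were also formed. Higd1b over Rgs5, on the log2 scale of FPKM, was -2.12, -2.80 and -1.62 in the mock brains, against 0.07, -1.47 and -1.31 in the irradiated ones, so each irradiated library was above each mock library, with IR 1 the farthest. Kcnj8 over Abcc9, the pore and the regulatory subunit of the mural potassium channel, was 1.2, 1.42 and 1.32 in the mock brains, against 2.43, 1.39 and 1.59 in the irradiated ones. Myh11 over Tagln was -2.21, -2.72 and -2.49 in the mock brains, against -3.62, -2.22 and -2.47 in the irradiated ones. The ratios were formed after the values were seen and carry no test. They join genes of different transcript length, a property by which the libraries differed, IR 1 the most.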
